A study of Homo sapiens with 30 samples.

Results

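Transcript levels of 39 interferon-stimulated and innate sensing genes were followed, chosen by symbol from a named list of antiviral effectors, nucleic acid sensors and interferon-response transcription factors. All 39 were among the 28307 genes listed in each count table, and their levels are given as CPM, the count scaled to a common library total. The RNA-seq series holds 30 libraries of H9, an established human embryonic stem (hES) cell line, in 10 groups of 3. Naive hES cells resemble the preimplantation epiblast and primed hES cells the later, postimplantation epiblast. Unmodified cells were primed (Primed WT) or naive, the latter in PXGL (PXGL WT) or NaiveCult medium (NaiveCult WT). XIST, the long noncoding RNA that coats the X chromosome, was removed in either of 2 ways, both followed in naive PXGL cells. XIST KO was 1 homozygous deletion clone with 3 technical replicates, compared with PXGL WT. The deletion was made in primed cells, which were then converted to naive. In the CRISPRi system, 3 clones carried an inducible dCas9-KRAB repressor and a guide to the XIST promoter, and were left untreated (CRISPRi UT) or given doxycycline (CRISPRi Dox). Doxycycline was given once the cells were naive, so of the 2 systems only the deletion removed XIST before conversion. Both CRISPRi groups carry the transgenes, and with no doxycycline-only control the drug and the loss of XIST cannot be told apart. For knockdown of SPEN, a repressor protein that binds XIST, naive PXGL cells received 1 of 2 siRNA mixes (siSPEN1, siSPEN2) or a scrambled control (siScr). XACT KO comprised 3 NaiveCult clones with a deletion over the start sites of XACT, another long noncoding RNA that coats active X chromosomes. Matrigel carried the primed cultures, and inactivated mouse fibroblasts fed the naive ones.

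Interferons are secreted when a cell senses foreign nucleic acid. They bind surface receptors, activate JAK kinases and STAT proteins, and a complex that holds STAT2 and IRF9 then binds the interferon-stimulated response element in the promoters of interferon-stimulated genes. The products of these genes block virus entry, bind or degrade viral RNA and stop translation. Pluripotent stem cells are known to respond weakly to interferon and to express part of this set without it.

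RefSeq promoter windows (GRCh38.p14, 250 bases before to 50 after the start site) were matched by symbol for 31 members. The core of the interferon-stimulated response element, GAAANNGAA on either strand, occurred in 23 of these 31 windows (74.2%), against 8.11% of 35116 promoters of the same length. The core of the gamma-activated site, TTCNNNGAA, which reads the same on both strands, occurred in 11 of 31 (35.5%), against 7.66% of all promoters. Matches of either motif could overlap each other. IFITM2, IFIT2, OAS2, OASL, IRF7, MX2, GBP2 and TRIM22 were not in the promoter table. The windows below, of 60 bases lying before the start site, belong to some of the members described below, chosen with their values known, and to ISG15, whose window holds 3 overlapping matches. Capitals mark matches to GAAANNGAA or its reverse complement. A match is a letter pattern, not a measured binding site.
IFI16 (chr1:159009808-159009867, plus strand): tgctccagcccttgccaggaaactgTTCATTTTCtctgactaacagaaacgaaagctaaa
IFIT5 (chr10:89414499-89414558, plus strand): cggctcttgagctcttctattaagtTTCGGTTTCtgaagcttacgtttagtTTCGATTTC
BST2 (chr19:17405726-17405785, minus strand): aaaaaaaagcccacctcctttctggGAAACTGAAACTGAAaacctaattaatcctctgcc
IFI6 (chr1:27672314-27672373, minus strand): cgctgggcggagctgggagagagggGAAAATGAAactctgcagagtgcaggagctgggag
MX1 (chr21:41431830-41431889, plus strand): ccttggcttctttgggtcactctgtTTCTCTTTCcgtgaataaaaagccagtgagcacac
PARP9 (chr3:122564306-122564365, minus strand): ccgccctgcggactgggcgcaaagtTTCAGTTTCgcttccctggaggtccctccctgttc
ISG15 (chr1:1013359-1013418, plus strand): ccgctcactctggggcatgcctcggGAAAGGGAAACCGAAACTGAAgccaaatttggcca
The matched cores began 74 bases upstream of the start site in IFI16, 130 in BST2, 195 in MX1 and 40 in PARP9. No GAAANNGAA match was found in the windows of OAS1, SAMHD1, STAT2, IRF1, IRF9, CASP4, IFI35 and XAF1.

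Library totals ranged from 31190052 to 65637976 counts. XIST was at 898 to 901 CPM in PXGL WT and 0.177 to 0.448 CPM in XIST KO, and at 642 to 698 CPM in CRISPRi UT and 6.52 to 170 CPM in CRISPRi Dox, where replicate 1 was the lowest. SPEN was at 330 ± 46.3 CPM (SD, n = 3) in siScr, 152 to 177 CPM in siSPEN1 and 152 to 167 CPM in siSPEN2. XACT was at 1.14 to 2.17 CPM in NaiveCult WT and 0 to 0.124 CPM in XACT KO. The summed level of 8 naive markers was 2400 to 3720 CPM in the 9 naive groups and 29.7 to 34.5 CPM in Primed WT. The libraries carry 3 file-name prefixes, 1 for the CRISPRi, PXGL WT and XIST KO groups, 1 for the siRNA groups and 1 for Primed WT, NaiveCult WT and XACT KO, and what they stand for is not stated. Prefix and cell state therefore cannot be told apart wherever PXGL WT is set beside Primed WT or NaiveCult WT. Per the study's methods the replicates were biological, other than those of XIST KO, and the labels do not say further how they were separated.

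Of the 39 members, 20 were detected (at least 10 counts in each library) in all 10 groups, 11 in some groups and 8 in none. IFIT2, OAS2, OASL, GBP4, IFI27, IFI44, IFI44L and XAF1 made up the last class, and IFI27 had 0 counts in all 30 libraries, where 3 counts would be 0.0457 to 0.0962 CPM per library. The members together took 1634 to 2035 CPM in the naive libraries and 1189 to 1265 CPM in the Primed WT libraries. Most of this was carried by a few genes. Per kilobase of exon of the canonical transcript, the highest mean level in PXGL WT was that of IFITM1 (577 CPM per kb), followed by IFITM3 (489), SAMHD1 (138), IFITM2 (136), ISG15 (43.8) and MX1 (32.4). The per-kilobase ranges of SAMHD1 and IFITM2 overlapped. In Primed WT the order was IFITM1 (430 CPM per kb), IFITM3 (202), IFITM2 (163), ISG15 (56.7), BST2 (49.2) and EIF2AK2 (22.3). The IFITM genes encode related membrane proteins that restrict virus entry, and they lie side by side on chromosome 11 (hg38, GENCODE 44, 303655 to 329475). Reads shared between such copies could be lost or assigned to the wrong one, so the separate IFITM values are uncertain, as are those of GBP1 and GBP3.

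**Figure D1:**
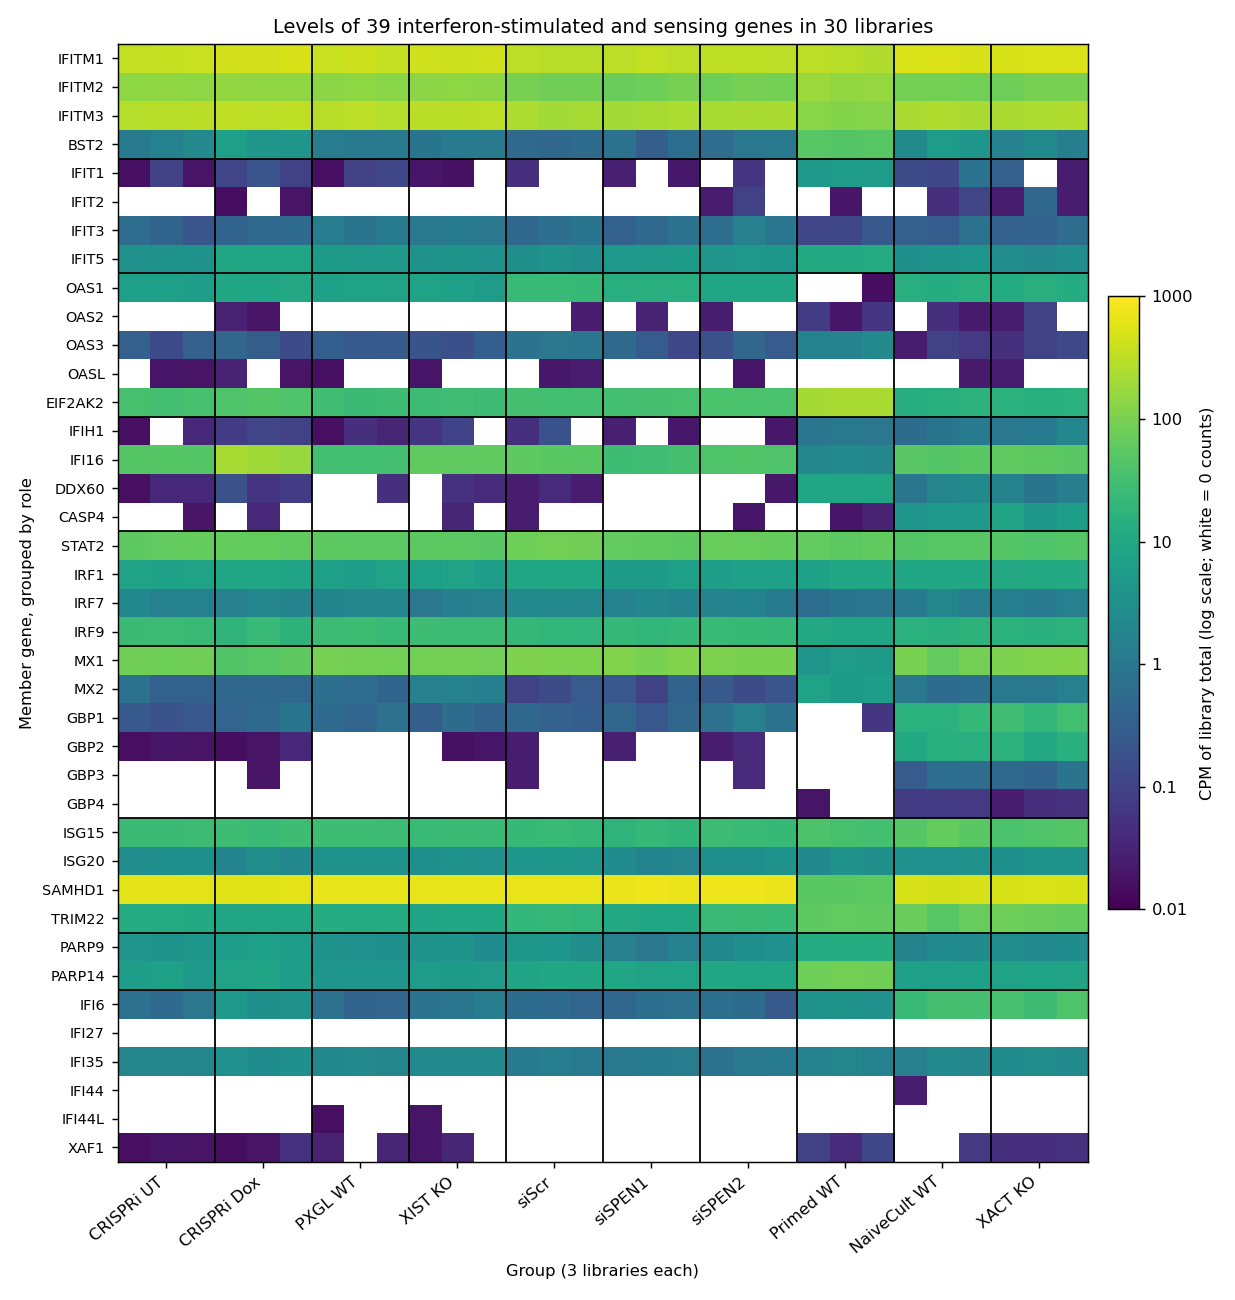
CPM of the library total (color, log scale; white, 0 counts) of the 39 members (rows, grouped by role) in 30 libraries (columns, 3 per group). SAMHD1 and MX1 are low in Primed WT, GBP1, GBP2 and CASP4 are high in NaiveCult WT and XACT KO, and IFI27 is at 0 in every library.

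The ligands were almost absent and the signaling chain was present. Over the 30 libraries the 10 interferon genes of the pathway list had 70 counts in all, 46 of them of IFNE, and 4 (IFNA1, IFNG, IFNL1 and IFNW1) had 0. IFNB1 had 1 count. Group means of the type I receptor subunits ranged from 26.3 CPM in Primed WT to 71.2 CPM in siSPEN1 for IFNAR1, and from 6.82 CPM in NaiveCult WT to 18.4 CPM in Primed WT for IFNAR2. JAK1, the receptor-associated kinase, ranged from 69.5 CPM in Primed WT to 105 CPM in siSPEN2. None of the 39 members lies on the X chromosome (0 of 39), and 9 lie on chromosome 1.

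Primed and naive cells expressed different members of the set. A gene was called when its edgeR adjusted p was below 0.05 and its log2 fold change above 1 or below -1. Of 31 members that passed the low-count filter in these 9 libraries, 12 were called higher and 9 lower in NaiveCult WT than in Primed WT, where 21.1% of all genes were called higher and 28.4% lower. In PXGL WT 9 were called higher and 11 lower than in Primed WT, where 25.8% of all genes were called higher and 29.1% lower. In either direction 67.7% of the members were called in NaiveCult WT and 64.5% in PXGL WT. GBP2, GBP3 and CASP4 passed the low-count filter through NaiveCult WT alone and IFIT1 through Primed WT alone. Their calls against the other groups were thus not independent of the filter. GBP2 and GBP3, with no counts in PXGL WT or Primed WT, could not be called between these. The same filter was used for all genes. By the adjusted p alone 27 (87.1%) and 25 (80.6%) of 31 members differed, against 85.4% and 87.5% of all genes. By that measure, which most genes passed, the members' shares were near the background. The 2 contrasts share the Primed WT libraries. The median log2 fold change of the members was 0.38 in NaiveCult WT and -0.05 in PXGL WT, and that of all genes was -0.01 and -0.03. Without TMM factors the median of all genes moved to -0.17 and -0.24, and 10 and 9 members were called higher and 9 and 12 lower. On that scale IFITM1 and IFITM3 fell below the fold threshold in NaiveCult WT (log2 0.87 and 0.96).

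SAMHD1, IFI16, MX1, OAS1, IFITM3, IFIT3 and GBP1 were called higher than in Primed WT under both naive protocols. SAMHD1 (chromosome 20, 36890229 to 36951893), a hydrolase that depletes the nucleotides viruses need, was at 53.1, 52.4 and 54.7 CPM in Primed WT, 503, 482 and 493 CPM in NaiveCult WT and 641, 640 and 640 CPM in PXGL WT. The groups did not overlap, and the level was 10.3-fold higher in NaiveCult WT (log2 3.36, SE 0.0435, adjusted p = 2.3e-16) and 13.8-fold higher in PXGL WT (log2 3.79, SE 0.0443, adjusted p = 9.7e-17). IFI16 (chromosome 1, 158999968 to 159055155), a nuclear DNA sensor, was at 1.98, 2.41 and 2.07 CPM in Primed WT, 52.4, 45.5 and 52.6 CPM in NaiveCult WT and 32.2, 30.2 and 32.4 CPM in PXGL WT. Its log2 fold changes were 4.70 (SE 0.0891, adjusted p = 7.6e-15) and 4.09 (SE 0.0885, adjusted p = 2.5e-14). MX1, a dynamin-like GTPase that traps viral nucleocapsids, was at 4.11, 5.82 and 5.32 CPM in Primed WT, 99.5, 63.9 and 90.6 CPM in NaiveCult WT and 93.4, 92.0 and 84.7 CPM in PXGL WT. It was 18.5-fold and 20.4-fold higher than in Primed WT (adjusted p = 6.6e-12 and 3.7e-12), and the naive protocols overlapped. OAS1, an oligoadenylate synthetase that activates RNase L, had 1 count over the 3 Primed WT libraries. It was at 13.4, 12.5 and 14.5 CPM in NaiveCult WT, a ratio to Primed WT of 2250 (95% counting interval 404 to 89000), and at 7.12, 7.56 and 7.62 CPM in PXGL WT, a ratio of 1240 (222 to 49100). IFITM3 was at 130, 119 and 122 CPM in Primed WT, 236, 250 and 236 CPM in NaiveCult WT and 294, 322 and 279 CPM in PXGL WT, 2.17-fold and 2.79-fold higher. IFITM1 was called in NaiveCult WT alone (log2 1.02, and 0.63 in PXGL WT), and fell below the fold threshold without Primed WT replicate 3 (0.94) or NaiveCult WT replicate 2 (0.98). IFIT3 was at low levels, of 0.118 to 0.244 CPM in Primed WT, 0.279 to 0.765 CPM in NaiveCult WT and 0.83 to 1.27 CPM in PXGL WT. IRF9, the DNA-binding partner of STAT2, was at 8.55 to 10.2 CPM in Primed WT, 15.2 to 16.8 CPM in NaiveCult WT and 23.9 to 27.9 CPM in PXGL WT, and was called only in PXGL WT (log2 1.72, adjusted p = 3.7e-10), with log2 0.93 in NaiveCult WT (adjusted p = 4.0e-07). STAT2 itself stayed between 46.7 and 61.6 CPM in all 9 libraries, and its sign in PXGL WT depended on the scaling (log2 0.13 with TMM factors and -0.08 without).

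BST2, IFIT1, OAS3, EIF2AK2, DDX60, MX2, PARP9 and PARP14 were called lower than in Primed WT under both naive protocols. EIF2AK2, the double-stranded RNA-activated kinase that stops translation, was at 213, 229 and 227 CPM in Primed WT, 12.9, 14.1 and 16.6 CPM in NaiveCult WT and 29.3, 26.1 and 27.5 CPM in PXGL WT. The groups did not overlap, and the level was 13.8-fold lower in NaiveCult WT (log2 -3.79, adjusted p = 1.5e-14) and 6.98-fold lower in PXGL WT (log2 -2.80, adjusted p = 1.2e-13). PARP14, a mono-ADP-ribosyltransferase, was at 77.3, 84.4 and 83.9 CPM in Primed WT, 6.61, 6.50 and 7.38 CPM in NaiveCult WT and 4.15, 4.24 and 4.18 CPM in PXGL WT, 10.8-fold and 16.9-fold lower (adjusted p = 1.4e-14 and 3.3e-15). BST2, the tetherin that holds budding virions at the membrane, was at 50.1, 46.4 and 51.1 CPM in Primed WT, 2.49, 5.81 and 4.28 CPM in NaiveCult WT and 1.30, 1.07 and 1.11 CPM in PXGL WT. Its log2 fold changes were -3.39 (adjusted p = 7.3e-10) and -5.19 (adjusted p = 2.6e-11). IFIT1, which binds viral RNA ends, was at 4.76, 5.73 and 5.82 CPM in Primed WT and at most 0.788 CPM in any NaiveCult WT or PXGL WT library. MX2, the paralog of MX1 and its neighbor on chromosome 21, went the other way from MX1. It was at 7.74, 5.33 and 6.25 CPM in Primed WT, 1.02, 0.558 and 0.653 CPM in NaiveCult WT and 0.683, 0.616 and 0.406 CPM in PXGL WT (log2 -2.96 and -3.30, adjusted p = 6.1e-08 and 1.8e-08). OAS3 was at 1.72, 1.64 and 2.27 CPM in Primed WT and at most 0.318 CPM in any NaiveCult WT or PXGL WT library, also opposite to OAS1, which lies beside it on chromosome 12 (112905856 to 112976460 for the pair). DDX60, an RNA helicase of the sensing machinery, was at 9.01, 8.82 and 8.82 CPM in Primed WT and had 3 counts in PXGL WT, a ratio of 493 (95% counting interval 168 to 2390).

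**Figure D2:**
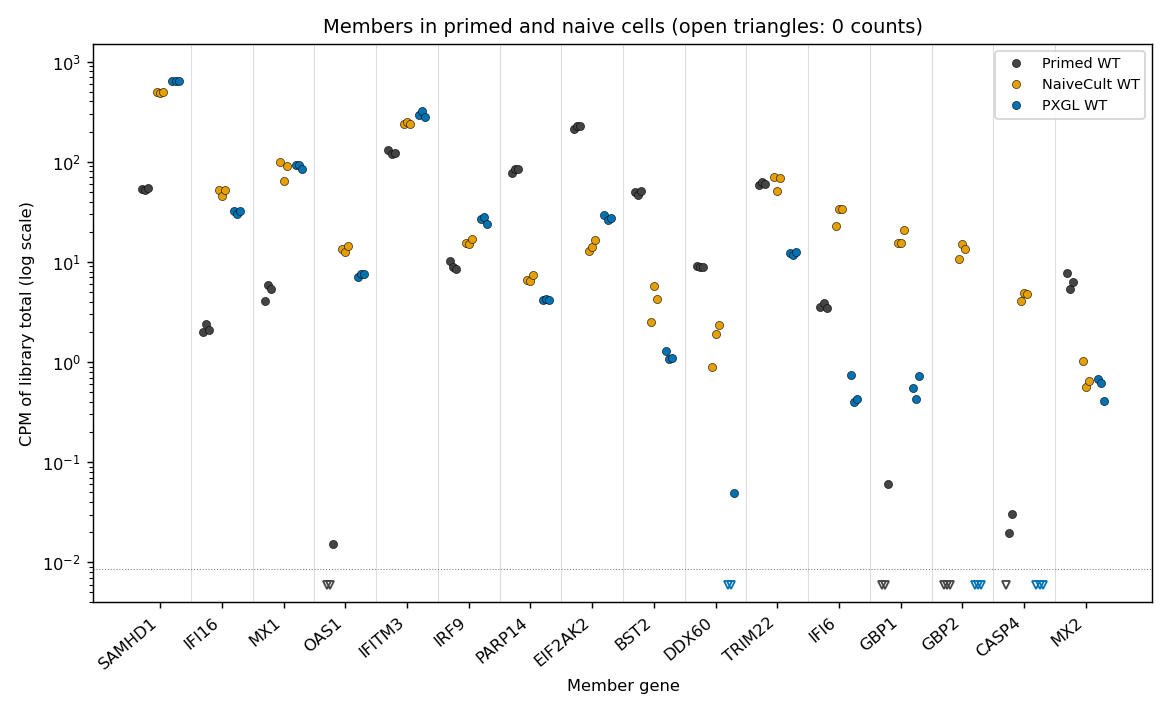
CPM of the library total (log scale) of 16 members in 3 Primed WT, 3 NaiveCult WT and 3 PXGL WT libraries (points; open triangles, 0 counts, drawn below the scale). SAMHD1, IFI16, MX1 and OAS1 lie higher in both naive groups, PARP14, EIF2AK2, BST2 and MX2 higher in Primed WT, and GBP1, GBP2 and CASP4 are high in NaiveCult WT.

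The 2 naive protocols also differed. Of 31 members, 2 were called higher and 10 lower in PXGL WT than in NaiveCult WT, where 16.3% of all genes were called higher and 11% lower, and 26 of 31 passed the adjusted p, against 70.6% of all genes. Among those called lower, GBP2, GBP3 and CASP4 had passed the low-count filter through NaiveCult WT alone, so their calls were not independent of it. The guanylate-binding proteins, GTPases that attack the membranes around intracellular pathogens, lie in 1 cluster on chromosome 1 (89006679 to 89198942). GBP2 had 1682 counts in NaiveCult WT (10.7, 15 and 13.4 CPM) and 0 in both Primed WT and PXGL WT, at least 730-fold and at least 727-fold higher against 3 counts over the group. GBP1 was at 15.5, 15.5 and 21.0 CPM in NaiveCult WT, 0.556, 0.427 and 0.731 CPM in PXGL WT, and 0, 0 and 0.0609 CPM in Primed WT. Between the protocols it was 28.6-fold lower in PXGL WT (log2 -4.84, SE 0.242, adjusted p = 5.9e-10). GBP3 had 66 counts in NaiveCult WT and 0 in both others. CASP4, an inflammatory caspase that senses bacterial lipopolysaccharide, was at 4.07, 4.92 and 4.82 CPM in NaiveCult WT, with 0 counts in PXGL WT (at least 256-fold lower) and 3 in Primed WT. IFI6, a small membrane protein induced by interferon, was at 22.9, 33.5 and 34.1 CPM in NaiveCult WT, 0.747, 0.403 and 0.423 CPM in PXGL WT and 3.51, 3.87 and 3.44 CPM in Primed WT, so the primed level lay between the protocols. TRIM22, an antiviral ubiquitin ligase, was at 70.9, 51.2 and 68.2 CPM in NaiveCult WT, overlapping the 58.4, 62.3 and 60.1 CPM of Primed WT, and at 12.2, 11.8 and 12.7 CPM in PXGL WT (log2 -2.32 between the protocols, adjusted p = 1.2e-10). The RNA sensors IFIH1 and DDX60 were at 0.585 to 1.10 and 0.902 to 2.32 CPM in NaiveCult WT and at no more than 0.0474 and 0.0488 CPM in PXGL WT. BST2 and IFIT1 were lower in PXGL WT as well (log2 -1.80 and -2.21), but IFIT1 was no longer called without NaiveCult WT replicate 3 (adjusted p = 0.28) or PXGL WT replicate 1 (0.081). IFIT3 and OAS3 were the members called higher in PXGL WT (log2 1.27 and 2.15). Markers of other cells moved with this contrast. The summed level of 6 trophectoderm markers was 338 to 427 CPM in NaiveCult WT, 30.9 to 32.2 CPM in PXGL WT and 10.2 to 10.6 CPM in Primed WT, with CGA at a mean of 271 CPM in NaiveCult WT. Of the 8 fibroblast markers, COL3A1 and LUM were at 8.9 to 16.3 and 2.97 to 6.35 CPM in NaiveCult WT and at no more than 0.0163 and 0 CPM in PXGL WT, while COL1A1 (1.51 to 1.7 and 2.8 to 3.27 CPM) and TWIST2 (4.69 to 6.14 and 11.4 to 16.1 CPM) were lower in NaiveCult WT than in PXGL WT without overlap. The summed fibroblast list was at 22.4 to 33.7, 14.8 to 19.9 and 81.3 to 87.6 CPM in NaiveCult WT, PXGL WT and Primed WT. In bulk RNA, fewer cells of a type and less RNA per cell cannot be told apart, and the part of these cells in the member levels was not tested. Without NaiveCult WT replicate 3, the library with the most COL3A1 and LUM, 22 members were called against Primed WT, and 21 with it. COL3A1 was still at 8.9 and 10.2 CPM in replicates 1 and 2, so this count cannot show what part these cells have.

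Loss of XIST was followed in both systems, which share no libraries. After XIST deletion 1 member was called higher and 0 lower of 25 tested, where 1.07% of all genes were called higher and 0.468% lower, and 9 passed the adjusted p (5 higher, 4 lower), against 25.9% of all genes. MX2 rose from 0.683, 0.616 and 0.406 CPM in PXGL WT to 1.49, 1.66 and 1.44 CPM in XIST KO, 2.72-fold (log2 1.44, SE 0.235, adjusted p = 4.3e-05). IFI16 went from 32.2, 30.2 and 32.4 CPM to 60, 59.6 and 58.9 CPM, 1.88-fold higher (log2 0.91, SE 0.0325, adjusted p = 8.0e-17), short of the fold threshold. TRIM22 was at 12.2, 11.8 and 12.7 CPM and then 8.43, 9.87 and 9.57 CPM (log2 -0.39, SE 0.067, adjusted p = 8.4e-05). The groups did not overlap in any of these 3 genes. IFI6 (log2 0.90, adjusted p = 0.021) was called as well without PXGL WT replicate 1 (log2 1.26) or XIST KO replicate 1 (log2 1.02), and its adjusted p was 0.097 without PXGL WT replicate 3 and 0.15 without XIST KO replicate 3. Since the 3 XIST KO libraries are technical replicates of 1 clone, these p-values do not cover differences between clones.

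After doxycycline 5 members were called higher and 0 lower of 25 tested, where 2.22% of all genes were called higher and 1.23% lower. By the adjusted p alone 14 differed (11 higher, 3 lower), against 31.6% of all genes. The median log2 fold change of the 25 was 0.20, beside 0.00 for all genes. IFI16 rose from 49.1, 47.5 and 47.7 CPM in CRISPRi UT to 219, 194 and 167 CPM in CRISPRi Dox, 3.97-fold (log2 1.99, SE 0.0736, adjusted p = 3.3e-09), and became the fifth highest member per kilobase in that group (67 CPM per kb). IFIT5 rose from 3.45, 3.49 and 3.71 CPM to 9.62, 8.51 and 8.55 CPM (log2 1.31, SE 0.105, adjusted p = 2.4e-06). IFI6 rose from 0.780, 0.566 and 0.974 CPM to 4.55, 3.21 and 3.51 CPM, 4.81-fold (log2 2.27, SE 0.216, adjusted p = 1.0e-05). BST2 rose from 1.19, 1.58 and 2.30 CPM to 6.52, 4.02 and 4.06 CPM (log2 1.52, SE 0.242, adjusted p = 0.00049). GBP1 rose from 0.244, 0.189 and 0.225 CPM to 0.421, 0.501 and 0.860 CPM (log2 1.40, adjusted p = 0.014), and was no longer called without CRISPRi UT replicate 2 (adjusted p = 0.060) or CRISPRi Dox replicate 3 (0.068). MX1 went the other way, from 80.7, 80.5 and 83.0 CPM to 44.9, 49.9 and 58.6 CPM, 1.61-fold lower (log2 -0.69, SE 0.0799, adjusted p = 4.8e-05). The 8 naive markers, all detected in both groups, summed to 3400 to 3480 CPM in CRISPRi UT and 3060 to 3210 CPM in CRISPRi Dox, and moved in both directions. KLF17 (127 to 136 and 40.5 to 71 CPM), SUSD2 (881 to 916 and 497 to 596 CPM) and DPPA3 (239 to 248 and 216 to 238 CPM) were lower in CRISPRi Dox without overlap. DPPA5 (321 to 356 and 392 to 432 CPM) and KLF4 (492 to 501 and 510 to 547 CPM) were higher without overlap, and DNMT3L, KLF5 and TFCP2L1 overlapped. Their part in the member levels was not tested.

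**Figure D3:**
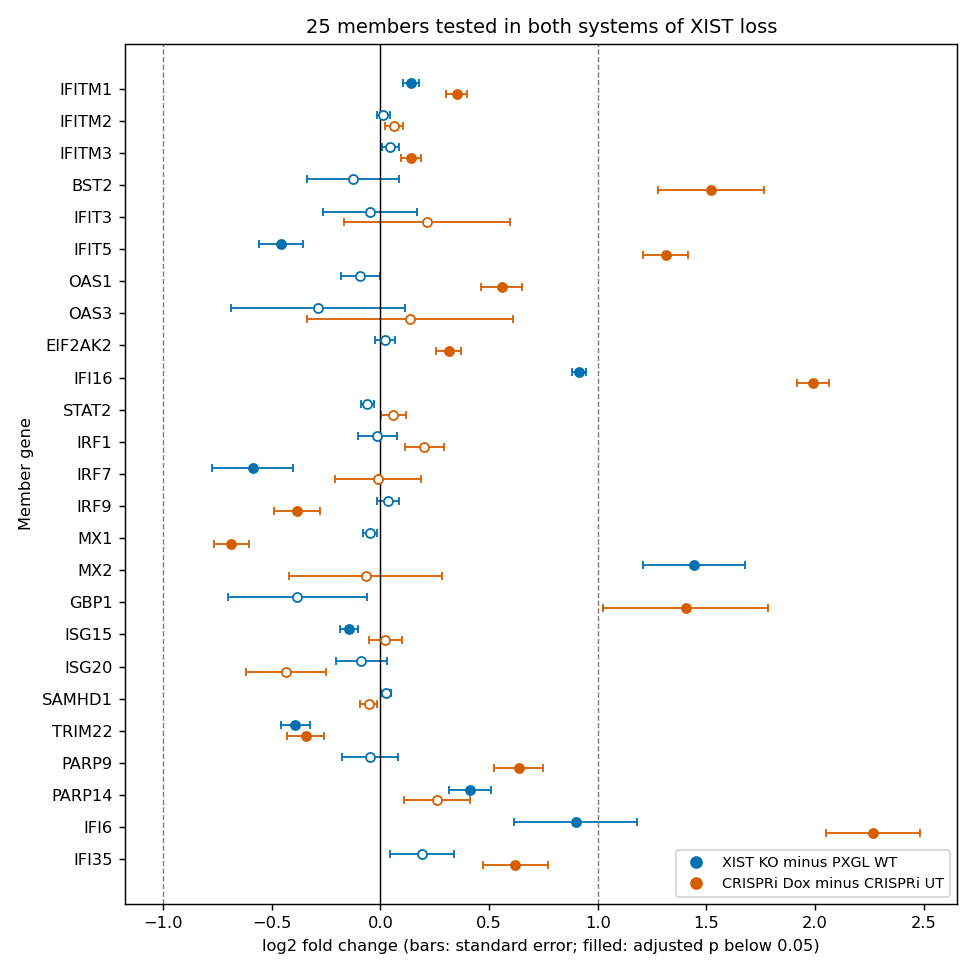
Log2 fold change (x axis) of the 25 members tested in both systems, XIST KO against PXGL WT (blue) and CRISPRi Dox against CRISPRi UT (orange), with standard errors; filled points have an edgeR adjusted p below 0.05 and dashed lines mark the fold threshold. IFI16 and IFI6 are to the right in both, MX2 in XIST KO alone, and BST2, IFIT5 and GBP1 after doxycycline alone.

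The systems were compared directly by testing the difference between the 2 effects over the 12 libraries. It passed an adjusted p of 0.05 for 12 of 25 members (48%), against 21.8% of all genes. IFIT5 differed in sign, at log2 -0.46 after the deletion (5.31, 4.88 and 4.86 CPM in PXGL WT, 3.69, 3.80 and 3.43 CPM in XIST KO) and 1.31 after doxycycline, a difference of -1.78 (SE 0.14, adjusted p = 2.3e-08). IFI16 was higher in both but by less after the deletion, a difference of -1.08 (SE 0.0876, adjusted p = 3.6e-08). MX2, at log2 1.44 after the deletion and -0.07 after doxycycline, differed by 1.5 (SE 0.418, adjusted p = 0.014). BST2, IFI6 and GBP1 differed by -1.66, -1.38 and -1.79. TRIM22 showed no such difference (log2 -0.39 and -0.34, difference -0.05 with SE 0.107). It was the member that passed the adjusted p as lower in both systems, and IFITM1, IFI16 and IFI6 were those that passed it as higher in both. The share of all genes passing in the same direction in both was not counted, so this overlap is not read as particular to the members. After the deletion IFITM1 was at log2 0.14 and did not pass by DESeq2 (adjusted p = 0.17). With all 30 libraries in the edgeR fit, IFITM1 (0.28) and IFI6 (0.073) did not pass there either.

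**Figure D4:**
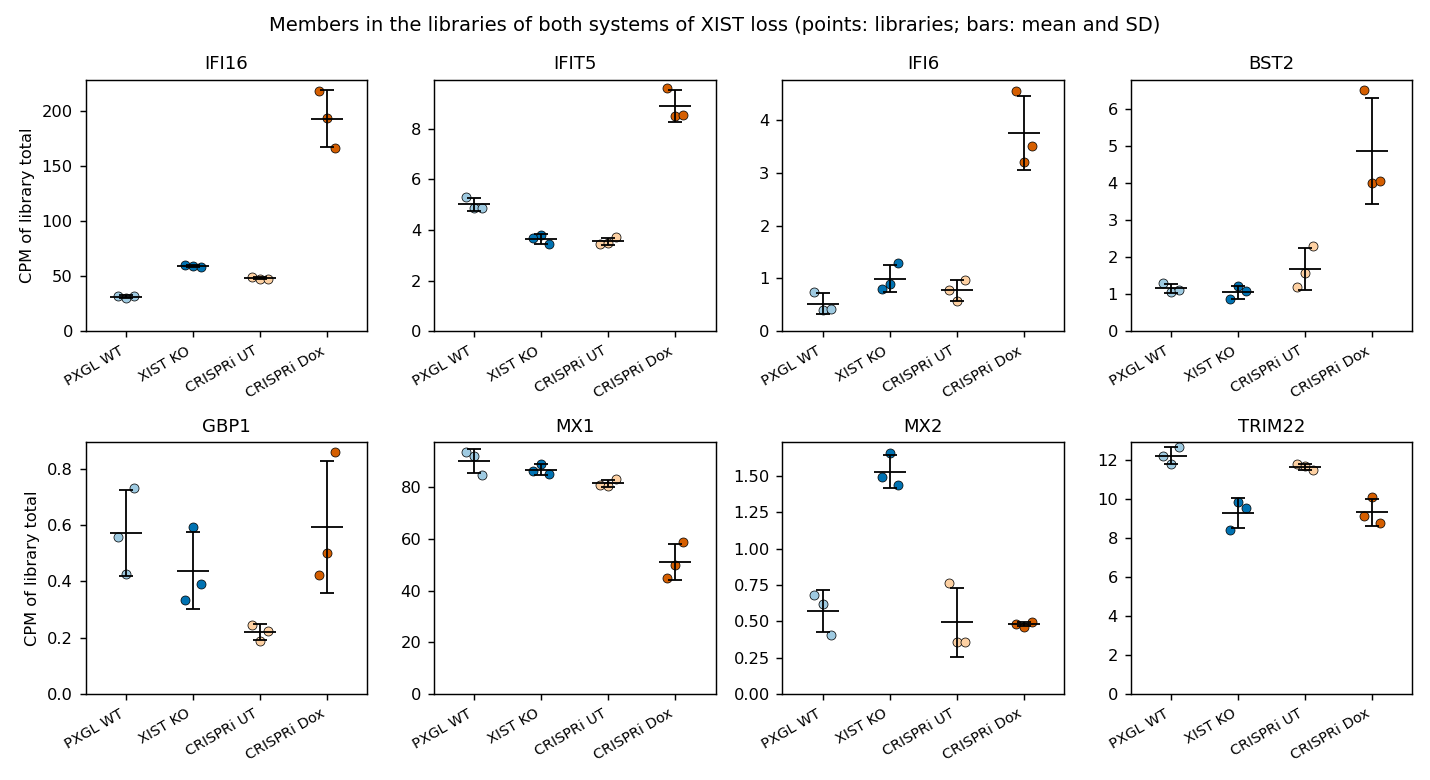
CPM of the library total (linear, from 0) of 8 members in each PXGL WT, XIST KO, CRISPRi UT and CRISPRi Dox library, with mean and SD (n = 3). IFI16 reaches 167 to 219 CPM in CRISPRi Dox and 58.9 to 60 CPM in XIST KO, and MX1 is lowest in CRISPRi Dox.

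After SPEN knockdown OAS1, OAS3, IFI16, STAT2 and IRF1 were lower than in siScr with either siRNA mix, by the adjusted p, as was ISG20, whose siSPEN2 value was lost in most repeats with 1 library left out. The mixes are compared with the same siScr libraries, so their effects are given side by side. The share of all genes lower under both mixes was not counted, so this overlap is not read as particular to the members. With siSPEN1, 0 members were called higher and 3 lower of 25 tested, where 2.24% of all genes were called higher and 2.85% lower. By the adjusted p 10 (40%) passed (2 higher, 8 lower), near the 43.7% of all genes. With siSPEN2, 1 was called higher and 2 lower, where 2.54% of all genes were called higher and 1.70% lower. By the adjusted p 11 (44%) passed (4 higher, 7 lower), near the 41.2% of all genes. OAS1 fell from 24.9, 24.8 and 22.7 CPM in siScr to 14.0, 13.5 and 13.8 CPM in siSPEN1 (log2 -0.80, SE 0.0712, adjusted p = 1.1e-08, short of the fold threshold) and to 9.30, 8.80 and 8.92 CPM in siSPEN2 (log2 -1.44, SE 0.0728, adjusted p = 3.7e-12). The 3 groups did not overlap. OAS3, its neighbor, fell from 0.785, 0.968 and 0.898 CPM to 0.530, 0.289 and 0.124 CPM (log2 -1.53, adjusted p = 0.0066) and to 0.171, 0.446 and 0.273 CPM (log2 -1.55, adjusted p = 0.0049). Without siSPEN1 replicate 3 its siSPEN1 call was lost (log2 -1.06, adjusted p = 0.051). IFI16 went from 57.5, 52.2 and 52.0 CPM to 28.5, 29.8 and 33.9 CPM and to 41.8, 43.6 and 42.8 CPM (log2 -0.80 and -0.34). The transcription factors STAT2 (82.3 ± 4.36, 60.1 ± 2.11 and 67.6 ± 1.8 CPM in siScr, siSPEN1 and siSPEN2, SD, n = 3) and IRF1 (9.25 ± 0.24, 5.75 ± 0.663 and 7.01 ± 0.552 CPM) passed the adjusted p under both mixes with log2 fold changes between -0.67 and -0.30. IFIT5 passed it as higher under both (log2 0.64 and 0.46). The siScr level itself lay above that of PXGL WT for OAS1, OAS3, IFI16, STAT2 and IRF1, without overlap. Their PXGL WT means were 7.43, 0.272, 31.6, 55.9 and 6.85 CPM in that order. These genes were picked as lower than siScr under both mixes, so the same siScr values enter again here. The share of all genes lying above PXGL WT in siScr was not counted. The siRNA groups carry another file-name prefix than PXGL WT, so prefix and transfection cannot be told apart, and this difference was not tested.

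The mixes differed in other members. In siSPEN2 against siSPEN1, 3 members were called higher and 0 lower of 25, where 1.57% of all genes were called higher and 0.930% lower, and 10 passed the adjusted p, against 34.7% of all genes. TRIM22 was at 20.0, 21.0 and 19.8 CPM in siScr, 10.2, 9.49 and 9.40 CPM in siSPEN1 and 24.0, 26.0 and 22.9 CPM in siSPEN2. It fell with the first mix (log2 -1.06, SE 0.0746, adjusted p = 3.5e-10), was higher by log2 0.25 with the second (adjusted p = 0.0052), and differed between them by log2 1.31 (SE 0.0738, adjusted p = 2.4e-11). PARP9, which binds ADP-ribose and works in a complex with the ubiquitin ligase DTX3L, was at 4.42, 4.30 and 2.91 CPM in siScr, 1.48, 0.962 and 1.61 CPM in siSPEN1 and 2.17, 3.08 and 3.40 CPM in siSPEN2. It fell with the first mix (log2 -1.49, SE 0.215, adjusted p = 8.6e-06), did not pass with the second (log2 -0.43, adjusted p = 0.077), and differed between them by log2 1.06 (adjusted p = 0.00069), or 0.90 without siSPEN1 replicate 2 and 0.92 without siSPEN2 replicate 3. DTX3L, whose gene overlaps that of PARP9 by 240 bases on the opposite strand of chromosome 3, had the same order, at 16.6 ± 1.05, 7.38 ± 0.843 and 15.5 ± 0.419 CPM (SD, n = 3). The counting used strand, so reads of the pair were separable. GBP1 was at 0.5, 0.371 and 0.315 CPM in siScr, 0.446, 0.224 and 0.454 CPM in siSPEN1 and 0.732, 1.49 and 0.798 CPM in siSPEN2. It rose with the second mix (log2 1.35, adjusted p = 0.0046, and 0.068 without siSPEN2 replicate 2) and differed between the mixes by log2 1.38 (adjusted p = 0.0057, and 0.075 without that library). ISG20, an exonuclease, was at log2 -0.40 with siSPEN2 (adjusted p = 0.037), which became 0.077, 0.11 and 0.061 without siScr replicates 1, 2 and 3, and 0.099 and 0.11 without siSPEN2 replicates 1 and 2. With siSPEN1 it was at log2 -0.99 (adjusted p = 3.3e-05) and crossed the fold threshold without siScr replicate 3 (-1.01) or siSPEN1 replicate 1 (-1.16). LYZ, one of 5 leukocyte markers, was at 16.9 to 19.9 CPM in siScr, 6.21 to 7.05 CPM in siSPEN1 and 5.98 to 6.82 CPM in siSPEN2, while PTPRC, the pan-leukocyte marker, had 1, 0 and 1 counts. The 8 primed markers summed to 241 to 248 CPM in siScr, 138 to 147 CPM in siSPEN1 and 167 to 169 CPM in siSPEN2, with CD24 at means of 132, 51.2 and 59 CPM. The part of either list in the member levels was not tested.

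**Figure D5:**
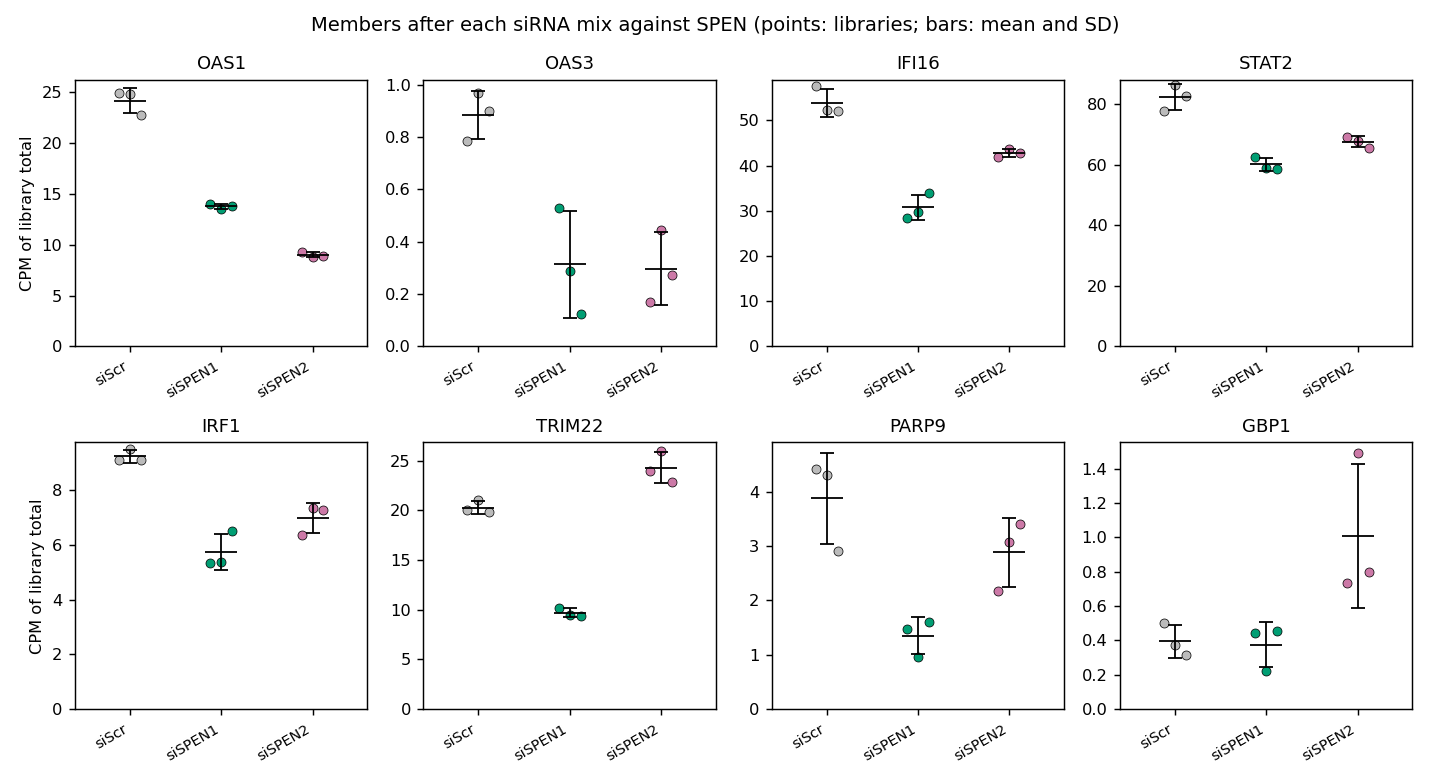
CPM of the library total (linear, from 0) of 8 members in each siScr, siSPEN1 and siSPEN2 library, with mean and SD (n = 3). OAS1, OAS3, IFI16, STAT2 and IRF1 are below siScr under both mixes, and TRIM22 and PARP9 are lowest in siSPEN1.

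Deletion of XACT was tested against NaiveCult WT. Of 29 members tested 0 were called higher and 0 lower by edgeR, where 0.0607% of all genes were called higher and 0.0546% lower, and 0 passed the adjusted p, against 0.425% of all genes. At an unadjusted p below 0.05 edgeR gave 10 of 29 members. DESeq2 called 1 member, BST2, and 23 genes over all genes, and 4 members passed its adjusted p. The shares of all genes at the unadjusted p and at the DESeq2 adjusted p were not counted, so these member counts have no background beside them. BST2 was at 2.49, 5.81 and 4.28 CPM in NaiveCult WT and 1.66, 2.43 and 1.45 CPM in XACT KO (log2 -1.17, SE 0.274, adjusted p = 0.061). The groups did not overlap, and BST2 was called without NaiveCult WT replicate 1 or without XACT KO replicate 2, with 1 member called in each of these fits. GBP1 was at 15.5, 15.5 and 21.0 CPM in NaiveCult WT and 29.6, 20.1 and 30 CPM in XACT KO (log2 0.62, SE 0.148, adjusted p = 0.062), and ISG15, a ubiquitin-like modifier, at 48.4, 66.9 and 53.7 and then 37.7, 42.3 and 46.3 CPM (log2 -0.41, SE 0.11, adjusted p = 0.078). GBP2 (10.7 to 15 and 10.2 to 16.6 CPM) and SAMHD1 (482 to 503 and 490 to 515 CPM) overlapped. The trophectoderm markers summed to 377 to 521 CPM in XACT KO, beside 338 to 427 CPM in NaiveCult WT. Among the fibroblast markers COL3A1 was at 2.36 to 8.07 CPM, beside 8.9 to 16.3 CPM, and COL1A1 and COL1A2 were also lower in XACT KO without overlap. TWIST2 was higher without overlap (6.51 to 7.86 CPM, beside 4.69 to 6.14 CPM), and POSTN, DCN, LUM and PDGFRB overlapped. The part of either list in the member levels was not tested.

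The other genes of the pathway, 71 by symbol, were counted by the same rule. After XIST deletion 0 of 51 tested were called in either direction, with 12 (23.5%) passing the edgeR adjusted p (4 higher, 8 lower), near the 25.9% of all genes. After doxycycline 5 of 51 were called higher and 0 lower, beside 2.22% and 1.23% of all genes. Among the 5 called higher, LGALS3BP, a secreted glycoprotein, went from 20.9 ± 0.672 to 82.1 ± 22.6 CPM (SD, n = 3) and SOCS3, the feedback inhibitor of JAK signaling, from 6.81 ± 0.474 to 15.1 ± 2.25 CPM. UBE2L6, the E2 enzyme of ISG15, and SP100, a nuclear body protein, were the next by size (log2 1.33 and 1.30). With siSPEN1 0 of 49 were called higher and 2 lower, DTX3L (log2 -1.15) and SOCS3 (log2 -1.003), and 25 of 49 were lower by the adjusted p and 8 higher, 67.3% together beside 43.7% of all genes. With siSPEN2 0 of 49 were called, with 20 (40.8%) passing the edgeR adjusted p, near the 41.2% of all genes. Against siSPEN1 4 were higher, beside 1.57% of all genes, LAMP3, DDX58, STING1 and DTX3L (log2 2.08, 1.41, 1.24 and 1.04). After XACT deletion 0 of 54 were called. Between states 14 of 56 were called higher and 17 lower in NaiveCult WT than in Primed WT, 18 higher and 16 lower in PXGL WT than in Primed WT, and 11 higher and 13 lower in PXGL WT than in NaiveCult WT. In either direction these were 55.4%, 60.7% and 42.9% of those tested, beside all-gene shares of 21.1% higher and 28.4% lower, 25.8% and 29.1%, and 16.3% and 11%. UBE2L6 was at 68.5 to 72 CPM in Primed WT and at no more than 1.13 CPM in NaiveCult WT and 0.477 CPM in PXGL WT. SP110 and IKBKE, a kinase upstream of interferon induction, were also primed, at means of 4.03 and 9.31 CPM against 0.0186 and 0.0927 CPM in PXGL WT. EPSTI1 was naive, at 0.752 ± 0.254 CPM in Primed WT, 14.5 ± 1.91 CPM in NaiveCult WT and 12.7 ± 0.504 CPM in PXGL WT. The DNA sensor AIM2 had 122 counts in NaiveCult WT, 197 in Primed WT and 1 in PXGL WT, and the adaptor STING1 was at 1.16 to 1.32 CPM in PXGL WT and 0.0697 to 0.135 CPM in NaiveCult WT. TLR7, a receptor for single-stranded RNA, had 59 counts in NaiveCult WT, 11 in PXGL WT and 0 in Primed WT.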

How the data were processed

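The authors deposited 1 table of raw counts per library, whole numbers of reads per gene with no normalization. Per their methods, total RNA libraries (rRNA-depleted, stranded, paired-end) were trimmed with Trim Galore 0.6.5, aligned with Bowtie2 (local mode) to hg38 for human and mm10 for mouse, deduplicated with Picard 2.23.5, cleared of mouse reads with XenofilteR and counted with HTSeq 0.13.5 by strand. Feeder reads that resemble human sequence can survive and reads of near-identical genes can be lost. The methods name an Ensembl annotation, while the deposited symbols follow RefSeq naming.

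Tests used edgeR 4.0.16 (quasi-likelihood, TMM factors, filterByExpr with minimum count 10 and minimum total 15) in R 4.3.3 on all genes, with Benjamini-Hochberg adjustment over all genes tested. The compared groups were fitted together: 6 libraries for XIST KO, CRISPRi and XACT KO, 9 for the SPEN and cell state comparisons and 12 for the difference between XIST systems. Each standard error was obtained by dividing the log2 fold change by the square root of F. Printed CPM are counts per library total, with no TMM factors. Counting intervals and limits for counts of 0 cover counting error only, and depth per library was 31190052 to 65637976 counts. The common biological coefficient of variation was 0.0254 in the XIST KO fit and 0.0554 to 0.0842 in the others. Replicate pairs differed beyond sampling noise (chi-square per gene 2.13 to 22). Scripts were tested on simulated data.

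The members and the pathway and marker lists were chosen with earlier results of these data known. Members called in a comparison were named with their values, up to 12 by size of change; with fewer than 3 called, the members with the smallest adjusted p, up to 3; and of the pathway list, up to 4 called genes by size. Further members were named after their values were seen. Alternatives were DESeq2 1.42.0, other scalings and filters, a replicate block, leaving out each library, and other sets of libraries in the fit. Promoter windows are those of RefSeq on GRCh38.p14 and gene positions those of GENCODE 44 on hg38, counted from 1.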

Additional observations from a re-analysis of the deposited data

Results flagged for a closer look

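The effects of XIST deletion and of doxycycline-induced XIST repression differed, by an edgeR test of the difference itself, for 12 members. On the log2 scale, the deletion effect minus the doxycycline effect was -1.79 for GBP1 (adjusted p = 0.015), -1.78 for IFIT5 (2.3e-08), -1.66 for BST2 (0.0014), -1.38 for IFI6 (0.012), -1.08 for IFI16 (3.6e-08), -0.69 for PARP9 (0.0058), -0.66 for OAS1 (0.0018), -0.30 for EIF2AK2 (0.0071) and -0.22 for IFITM1 (0.027). It was 1.5 for MX2 (0.014), 0.63 for MX1 (6.6e-05) and 0.41 for IRF9 (0.023). Leaving out 1 library lost this call for IFITM1, IRF9, MX2, GBP1 or IFI6 in at least 1 case each. The deletion is 1 clone, made before conversion to naive, and the repressed cells are 3 clones given a drug once naive. The system, the drug, the clone and the time of XIST loss therefore cannot be told apart.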

How the results depend on the processing

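Every call rests on 3 libraries a group, and members below about 10 counts per library could not be tested. With no fold threshold the number of members called was 9 for XIST KO, 14 for CRISPRi Dox, 10 for siSPEN1, 11 for siSPEN2, 10 for siSPEN2 against siSPEN1 and 26 for PXGL WT against NaiveCult WT. With at least 1 CPM in 3 libraries 1 member was called for siSPEN2, of 19 tested. For XACT KO 1 member was called, in place of 0, by DESeq2, without the low-count filter, with the replicate block and with all 30 libraries in one fit; which genes were tested or how the spread was estimated differed, and the cause was not tested. Leaving out 1 library gave 1 to 2 called members for XIST KO, 4 to 5 for CRISPRi Dox, 2 to 4 for siSPEN1, 2 to 3 for siSPEN2, 2 to 4 for siSPEN2 against siSPEN1, 0 to 1 for XACT KO, 20 to 22 for NaiveCult WT and 20 to 21 for PXGL WT against Primed WT, 11 to 13 between the naive protocols, and 9 to 15 for the difference between XIST systems. STAT2 in PXGL WT against Primed WT reversed to log2 -0.076 (adjusted p = 0.19) with library totals, a scale on which the median of all genes was -0.235. Of the members' results outside the counts, 1085 of the repeats under other settings and 898 of those with 1 library left out kept direction and side of the threshold, 2 and 24 lost the call, and 2 and 14 gained it. Read by the adjusted p alone, 28 repeats under other settings and 68 with 1 library left out changed sides to not passing, among them IRF7 in XIST KO, IFITM3 in CRISPRi Dox and ISG20 in siSPEN2. Replicate numbers did not pair the samples (correlations of same-numbered libraries -0.0892 to 0.105), and only siSPEN2 against siSPEN1 had all 3 correlate best with their own number. With the replicate block the counts of called members moved by more than 1.5 times for XACT KO alone. The edgeR adjusted p of EIF2AK2 in siSPEN2 against siSPEN1 (0.056) and of STAT2 in PXGL WT against Primed WT (0.057) did not pass with the block. Other alternatives lost them as well, among them DESeq2 for EIF2AK2 (0.065) and library totals for STAT2 (0.19).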
